A study of Mus musculus with 2 samples.

Results

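Expression of 8 cholesterol synthesis genes, *Hmgcs1*, *Idi1*, *Idi2*, *Fdft1*, *Sqle*, *Lss*, *Cyp51* and *Dhcr7*, was examined in *Sox21* KO and wild-type incisor tooth germ. On the array these 8 genes have 11 probes, of 21243 genes and 55679 probes in all. The genes were chosen by measured values of the same arrays, because *Idi2* has one of the highest ratios of KO over wild-type, and the question was whether *Idi2* moved with the rest of its pathway. Their values are therefore a description of these arrays, and no test was run on them.

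Animal cells build cholesterol from acetyl-CoA through mevalonate, the isoprenoid units isopentenyl and dimethylallyl diphosphate, squalene and lanosterol. Genes of the pathway are known to rise and fall together, because the transcription factor SREBP2 activates most of them when sterols in the endoplasmic reticulum run low. *Idi1* and *Idi2* are neighbouring genes for isopentenyl diphosphate isomerase, which converts the first of these isoprenoid units into the other. *IDI1* is active in most tissues, whereas *IDI2* has been described in skeletal muscle of humans.

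Tooth germ was taken from newborn incisors, at postnatal day 0 by the sample labels and at postnatal day 1 by the methods. Wild-type mice were C57BL/6J, and the *Sox21* KO mice, a knockout of the transcription factor gene *Sox21*, were a gift whose strain background is not given in the sources used here. Each genotype has 1 array, so that no difference has a replicate check, and how many animals were pooled for an array is not given. Tooth germ is a bulk tissue of enamel epithelium and dental mesenchyme, in which fewer cells of a type and less RNA per cell cannot be told apart.

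Signals are fluorescence intensities after background removal, and a normalized signal is that signal divided by the array's 75th percentile, 268 for wild type and 276 for KO. A probe counts as measured when the scanner software marks it as well above background in both genotypes. Of the spots other than controls, 49.7% carried this mark in wild type and 50.4% in KO, and 13804 genes had at least 1 measured probe. Each ± is the scanner software's own error for the spot, carried into the log2 ratio of KO over wild-type, and it covers the scan and not the mice. The median of this error over all measured genes was 0.20, and 270 probes spotted repeatedly had a median SD of 0.09 between the log2 ratios of their spots. The targeted gene was lower on the KO array at both of its probes, where signals of 1362 and 659 gave a log2 ratio of -1.09 ± 0.20 and signals of 286 and 103 gave -1.51 ± 0.22. Both probes were still well above background on the KO array, and whether they lie in the deleted part of the gene was not determined here. All 8 ameloblast genes, such as *Amelx*, *Ambn* and *Enam* for enamel matrix proteins, were well above background on both arrays.

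*Idi2* is read by 3 probes and *Idi1* by 1, all on chromosome 13 in the mm9 coordinates of the files. The first 30 of the 60 bases of each are shown, 5′ to 3′, because everything said of *Idi2* rests on which of these oligos gave a signal:
Idi2, A_55_P1970082, chr13:8958619-8958678: tggcctcatttagaggatgtgtcttcattc
Idi2, A_55_P2058899, chr13:8958749-8958808: ggggagttatagaagttgaatgctgaaatc
Idi2, A_66_P121137, chr13:8959955-8960014: tgcatcggggtcaacacttggacttcggga
Idi1, A_55_P2028961, chr13:8891524-8891583: ctaatttcttgctaactctgaacagttgat
The first pair of *Idi2* probes lie 71 bp apart, and the last, A_66_P121137, lies 1277 bp beyond the first. No run of 8 or more bases is shared between any of the *Idi2* probes and the *Idi1* probe, over their full 60 bases. The longest run that an *Idi2* probe shares with a probe of any other gene is 17, 13 and 15 bases, in the order shown. The GC content is 45%, 45% and 38.3% for the *Idi2* probes and 35% for the *Idi1* probe. Whether a probe lies in coding sequence or in a UTR was not determined here.

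*Idi2* was higher on the KO array at its bright probe, A_66_P121137. Its signal was 212.6 ± 22.0 in wild type and 1060 ± 106 in KO. These are normalized signals of 0.794 and 3.85, a ratio of 4.85 and a log2 ratio of 2.28 ± 0.21. An interval of 2 errors on either side runs from 3.63-fold to 6.46-fold. Among the 13804 measured genes, 4 had a higher ratio than *Idi2*, which is 0.0290% of them.

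The other *Idi2* probes were dim. A_55_P2058899 gave 9.36 ± 4.56 in wild type and 30.03 ± 5.01 in KO, where alone it was well above background. Against 21.3, the lowest wild-type signal that counts as well above background, it was at least 1.37-fold higher in KO. A_55_P1970082 gave 7.06 ± 4.96 and 19.3 ± 4.77 and was well above background on neither array, so no fold is given. Both dim probes had the larger number on the KO array, and the difference of normalized signals was 1.72 times its error at A_55_P1970082 and 2.97 times its error at A_55_P2058899. Of 308 negative control spots, 11 in wild type and 1 in KO reached the signal of A_55_P1970082, and 8 and 0 reached that of A_55_P2058899. Thus only the bright probe gives *Idi2* a ratio, and levels at the 3 probes cannot be set against each other.

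*Idi1*, for the isomerase that most tissues use, did not show the difference seen at *Idi2*. Its probe gave a signal of 899 ± 90.0 in wild type and 967 ± 96.8 in KO. The normalized signals were 3.36 and 3.51, and the log2 ratio was 0.06 ± 0.20, less than its error.

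*Hmgcs1* encodes the cytosolic HMG-CoA synthase and is the earliest step among the 8 genes. Its probe, which the files place on chr13_random:114793-114852, gave 5221 ± 522 in wild type and 5445 ± 544 in KO. The log2 ratio was 0.02 ± 0.20, so that the signals lay within their errors of each other.

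*Fdft1*, *Sqle* and *Lss* encode squalene synthase, squalene epoxidase and lanosterol synthase, which lead from farnesyl diphosphate to the first sterol. *Fdft1* gave 894 ± 89.6 in wild type and 850 ± 85.1 in KO, a log2 ratio of -0.12 ± 0.20, at a probe whose coordinates, chr14:63765750-63769990, span more than its 60 bases. Its second probe gave 14.3 ± 5.25 and 19.1 ± 5.08 and was well above background on neither array. *Sqle*, an oxygen-dependent and rate-controlling step (chr15:59162688-59162747), gave 5747 ± 575 and 5248 ± 525, with a log2 ratio of -0.17 ± 0.20. These differences were smaller than the error of the probe. *Lss* (chr10:76015992-76016051) gave 119 ± 12.8 and 140 ± 14.6, which are 0.445 and 0.506 after normalization, with a log2 ratio of 0.19 ± 0.22. Of the 3 genes, *Lss* was thus the one with the larger normalized signal on the KO array, by less than its error.

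*Cyp51* and *Dhcr7* act after lanosterol. *Cyp51*, the demethylase that acts on lanosterol (chr5:4081471-4081530), gave 330 ± 33.3 in wild type and 298 ± 30.1 in KO, with a log2 ratio of -0.19 ± 0.21. *Dhcr7*, the reductase that turns 7-dehydrocholesterol into cholesterol and so takes away the precursor of vitamin D (chr7:151033874-151033933), gave 130 ± 13.8 and 219 ± 22.3. Its normalized signals were 0.485 and 0.795, a ratio of 1.64 with an interval of 2 errors from 1.22 to 2.20, and its log2 ratio was 0.71 ± 0.21. *Dhcr7* was the only one of the 8 genes besides *Idi2* to differ by more than 2 errors. Of all measured genes, 266, or 1.93%, had a higher ratio than *Dhcr7*.

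**Figure D1:**
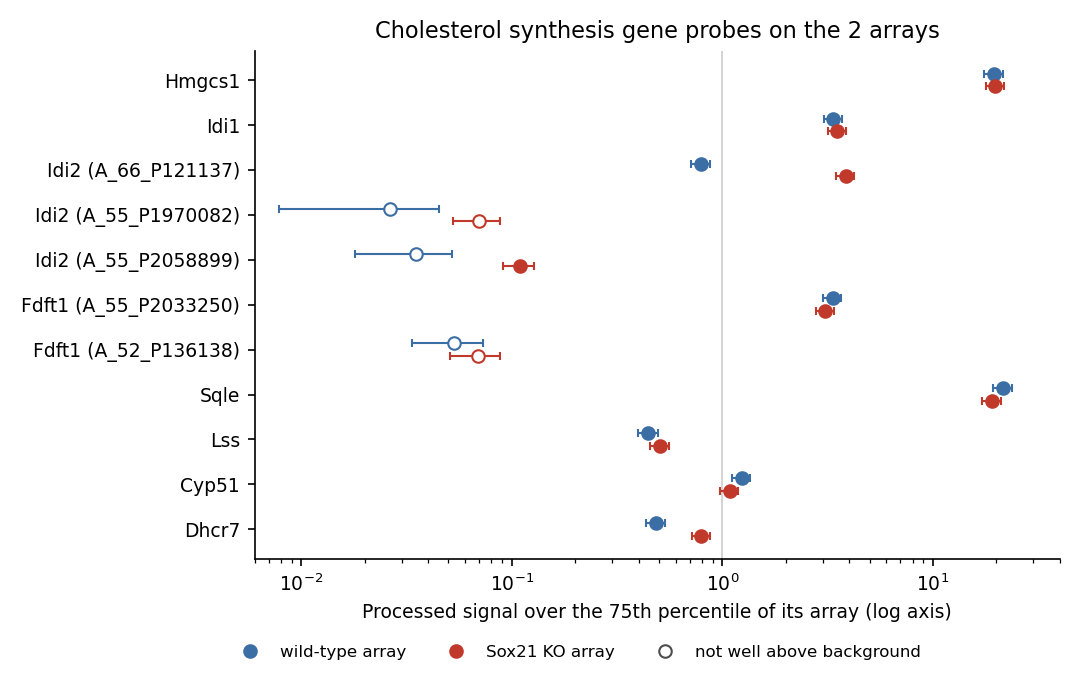
Normalized signal (processed signal divided by the array's 75th percentile, log axis) of all 11 probes of the 8 genes on the wild-type and *Sox21* KO arrays, in pathway order. Points are 1 array each, bars are the scanner software's error, and open points were not well above background. The bright *Idi2* probe stands at 0.794 and 3.85 and *Dhcr7* at 0.485 and 0.795, while the error bars of the other measured probes overlap between arrays. Signals of different probes are not comparable.

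All 8 genes had a probe measured on both arrays, which left 8 probes with a ratio, 1 probe well above background in KO alone and 2 in neither genotype. A log2 ratio above 0 was found for 5 of the 8 genes, beside 52.4% of all measured genes. At least 2-fold higher in KO was 1 gene, *Idi2*, beside 0.739% of all measured genes, and 0 were at least 2-fold lower, beside 0.666%. Beyond 2 errors, 2 of the 8 genes were higher and 0 lower, beside 5.55% and 5.29% of all measured genes. The rule used this contrast, so nothing is read from these counts. The median log2 ratio was 0.04 over the 8 genes and 0.02 over the 7 without *Idi2*, against 0.01 over all measured genes, and *Idi2* lay 2.26 above the median of the other 7. *Idi2* thus stood apart from the genes it was listed with, which ranged from -0.19 to 0.71.

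**Figure D2:**
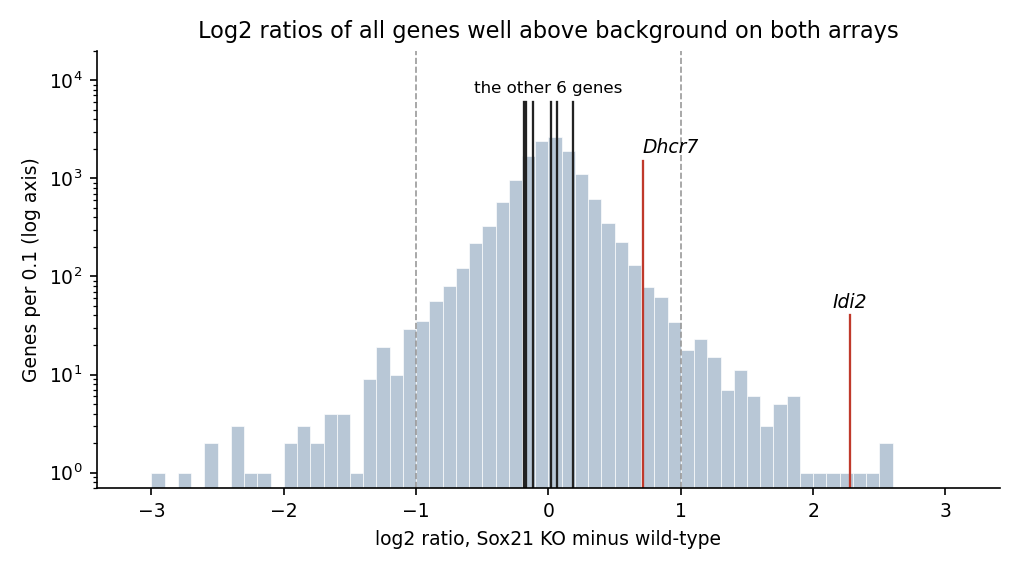
Number of genes per 0.1 of log2 ratio (*Sox21* KO minus wild-type, log count axis) for the 13804 genes measured on both arrays, with a line at the ratio of each of the 8 cholesterol synthesis genes and dashed lines at 2-fold. *Idi2* lies at 2.28, *Dhcr7* at 0.71 and the other 6 genes between -0.19 and 0.19; line heights carry no value.

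A list of 12 further enzymes between acetyl-CoA and cholesterol, written from textbook knowledge, was measured in full. Here and for the lists below, counts, medians and ranges take the brightest measured probe of each gene. Of the 12, 4 had a log2 ratio above 0 and 8 below, the median was -0.09, and 0 were at least 2-fold apart. When arrays were scaled by their median, 6 of the 12 lay above 0. The highest at its brightest probe was *Lbr*, a nuclear membrane protein that is also a sterol C14 reductase, with signals of 527 ± 52.9 and 686 ± 68.7 and a log2 ratio of 0.34 ± 0.20. Its dimmer probe had 0.09 ± 0.26, and as a mean over probes *Lbr* had 0.21, below the 0.34 of *Hsd17b7*, a sterol ketoreductase. At the other end was *Tm7sf2*, the second sterol C14 reductase, with 1160 ± 116 and 873 ± 87.4, a log2 ratio of -0.45 ± 0.20, and -0.39 at a dimmer probe. At their brightest probes *Tm7sf2* alone of the 12 differed by more than 2 errors, but with arrays scaled by their median its log2 ratio of -0.38 did not and that of *Lbr*, 0.41, did. Dimmer probes of other genes differed from the brightest ones. *Hsd17b7* had 0.41 ± 0.21 at its dimmer probe and 0.26 at its brighter one, and *Mvk*, mevalonate kinase, had -0.42 ± 0.20 and -0.05, so that the dimmer probes of both lay at about 2 errors. *Nsdhl*, a sterol dehydrogenase, had -0.66 ± 0.34 and -0.28, each within 2 errors. As a mean over probes *Nsdhl* had -0.47, below both probes of *Tm7sf2*.

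By stage of the pathway, the median log2 ratio was -0.05 over 2 enzymes between acetyl-CoA and mevalonate, -0.05 over the 3 from mevalonate to isopentenyl diphosphate, 0.06 over 3 isoprenoid enzymes, *Idi1*, *Idi2* and *Fdps*, and -0.12 over the 3 from squalene synthesis to lanosterol. Of these genes, *Idi2* alone differed by more than 2 errors at the brightest probe. Among 9 enzymes after lanosterol, 4 ratios were above 0 and 5 below, with a median of -0.06, and *Dhcr7* was the highest of the 9. Without *Idi2*, the 19 other enzymes had a median of -0.06, with 8 above 0 and 11 below.

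**Figure D3:**
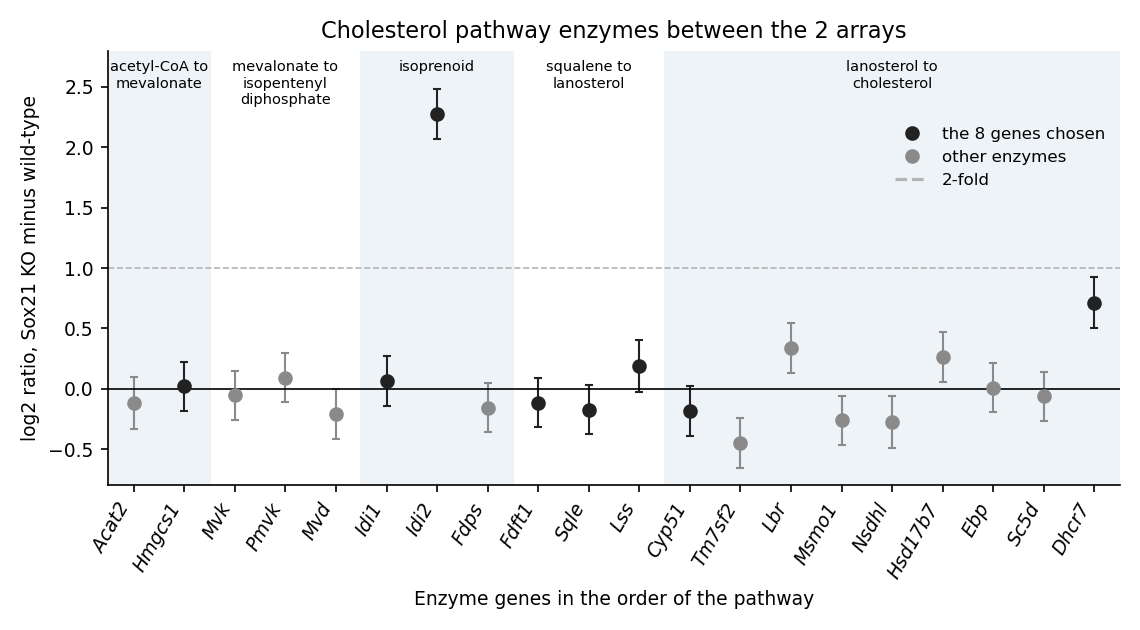
Log2 ratio (*Sox21* KO minus wild-type) of 20 enzymes in pathway order, with the 8 chosen genes in black, other enzymes in grey and a dashed line at 2-fold. Each point is the brightest measured probe of a gene on 1 array per genotype, and bars are the scanner software's error. *Idi2* lies at 2.28, and the other 19 lie between -0.45 and 0.71.

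Mevalonate products also feed other routes, and 9 enzymes listed for them, among them prenyl transferases and the ubiquinone and dolichol branches, ranged from -0.20 for *Pdss1*, which starts the ubiquinone side chain, to 0.09 for *Fnta*, the shared subunit of protein prenyl transferases. None was beyond 2 errors at its brightest probe, although a dimmer *Fnta* probe gave -0.46 ± 0.21. Their median was -0.08.

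The machinery that controls the pathway showed its lowest value at *Insig1*, which holds the SREBP escort protein Scap in the endoplasmic reticulum and is itself an SREBP target. *Insig1* gave 240 ± 24.6 in wild type and 156 ± 16.3 in KO, a log2 ratio of -0.66 ± 0.21. The highest was *Mbtps2*, one of the proteases that release SREBPs, with 96.7 ± 10.6 and 142 ± 14.8 and a log2 ratio of 0.52 ± 0.22. At their brightest probes these were the only ones of the 14 measured control genes beyond 2 errors, 10 were above 0 and the median was 0.11. With normexp background correction *Mbtps2* had 0.32, which is within 2 errors. *Srebf2*, the gene of SREBP2, had a log2 ratio of 0.12 ± 0.21 and *Srebf1*, that of SREBP1, -0.14 ± 0.22. Neither exceeded its error, although a dimmer *Srebf2* probe gave 64.7 ± 8.23 and 99.0 ± 11.0 with a log2 ratio of 0.57. *Ubxn4* was not measured on both arrays.

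Known SREBP2 targets outside synthesis showed no difference of the size seen at *Idi2*. Of 7 measured targets, 3 were above 0 and the median was -0.06. The range ran from -0.41 ± 0.20 for *Npc2*, the soluble lysosomal sterol carrier, to 0.25 ± 0.21 for *Npc1*, its membrane partner, and *Npc2* alone was beyond 2 errors, but not with arrays scaled by their median, where it had -0.34. *Npc1l1* was well above background on neither array.

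Of the 14 fatty acid synthesis genes, 12 had a log2 ratio above 0, beside 52.4% of all measured genes, and 12 lay within 2 errors. The other two, *Thrsp* and the acetyl-CoA carboxylase *Acacb*, were higher. The list had a median of 0.13 and a range from -0.04 for *Scd2*, a stearoyl-CoA desaturase, to 1.15 ± 0.28 for *Thrsp*, a regulator of lipogenesis. *Thrsp* was dim, with signals of 36.3 ± 5.86 and 83.1 ± 9.32, and was the 1 gene of this list at least 2-fold apart, but with normexp background correction its log2 ratio was 0.49. Dimmer probes of this list differed from the brightest ones, with -0.77 ± 0.30 for *Acly*, which makes cytosolic acetyl-CoA and had -0.02 at its brightest probe, and 0.74 ± 0.32 for the desaturase *Fads2*, which had 0.00290. Sterol efflux and oxysterol genes ran from -0.91 ± 0.37 for *Lcat*, the plasma enzyme that esterifies cholesterol, to 0.60 ± 0.20 for the exporter *Abcg1*, with a median of 0.05 over 11 of 14. *Lcat* was dim, at 44.0 ± 6.55 and 24.0 ± 5.10, and had a log2 ratio of -0.35 with normexp, while *Abcg1* gave 679 ± 68.1 and 1062 ± 106. Storage and release genes ran from -0.25 ± 0.24 for *Soat1*, which makes cholesteryl esters, to 0.64 ± 0.20 for the ester hydrolase *Nceh1*, with a median of 0.04 over 6 of 8. None of these lists held a gene with a ratio as high as that of *Idi2*.

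Genes near *Idi2* were read from the coordinates in the files. Within 1 Mb of the bright *Idi2* probe lie 27 probes, of which 17 were measured, and the 16 other than *Idi2* had log2 ratios from -0.57 to 0.66. *Gtpbp4*, a nucleolar GTPase and the nearest gene with a probe on one side at 11.8 kb, gave 269 and 282, a log2 ratio of 0.03 ± 0.21. *Rpl10a-ps2*, a ribosomal protein pseudogene 19.9 kb away on the side of *Idi1*, gave 32.4 and 52.6, a log2 ratio of 0.66 ± 0.31 that is uncertain, since a pseudogene probe may read its parent gene. Beyond it, *Idi1* lies 68.4 kb away. Further out, *Wdr37* had -0.06, *Larp4b* -0.23, *Dip2c* 0.02, *Gm16477* 0.07 and *Zmynd11* -0.31 and -0.57 at its 2 probes. No other measured probe in this window came near the ratio of *Idi2*.

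**Figure D4:**
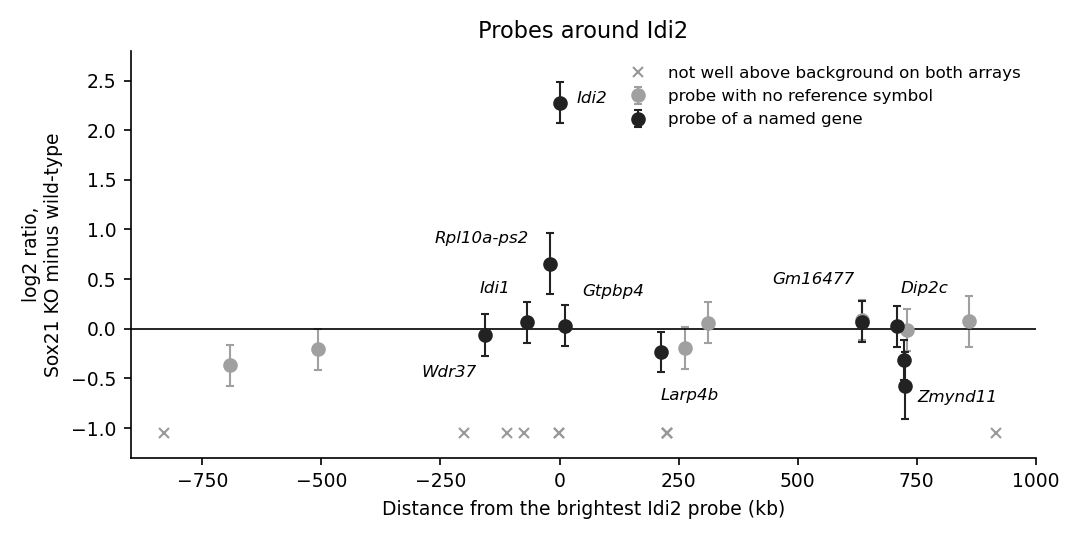
Log2 ratio (*Sox21* KO minus wild-type) of the probes within 1 Mb of the bright *Idi2* probe against their distance from it in kb, with the scanner software's error as bars and 1 array per genotype. Crosses mark probes without a ratio. *Idi2* lies at 2.28 and the 16 other measured probes between -0.57 and 0.66.

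Promoter windows of RefSeq on GRCm38.p6, from 250 bases before to 50 after a start site, were held for 6 of the 8 genes, and those of *Sqle* and *Fdft1* were not used here. These were searched on both strands for TCACCCCAC, a core of the sterol regulatory element that SREBPs bind, for its looser form TCACNCCAC, which includes the first, for CCAAT, the box of the cofactor NF-Y, and for AACAAT, a core that Sox proteins bind. The 250 bases before the start site are shown for both isomerase genes and for *Hmgcs1*, all on the plus strand, with motifs in capitals (ATTGG is CCAAT on the other strand):
Idi2, chr13:8952613-8952862: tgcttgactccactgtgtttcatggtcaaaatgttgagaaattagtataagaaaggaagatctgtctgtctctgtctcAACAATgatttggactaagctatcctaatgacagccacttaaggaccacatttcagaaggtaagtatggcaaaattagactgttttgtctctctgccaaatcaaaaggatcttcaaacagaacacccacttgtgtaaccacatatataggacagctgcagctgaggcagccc
Idi1, chr13:8885356-8885605: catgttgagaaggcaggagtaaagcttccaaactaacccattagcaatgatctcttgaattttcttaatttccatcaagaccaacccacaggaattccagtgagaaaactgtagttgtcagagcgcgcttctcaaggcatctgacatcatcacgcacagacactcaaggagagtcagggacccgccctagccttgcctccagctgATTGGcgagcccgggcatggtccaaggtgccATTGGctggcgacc
Hmgcs1, chr13:119690101-119690350: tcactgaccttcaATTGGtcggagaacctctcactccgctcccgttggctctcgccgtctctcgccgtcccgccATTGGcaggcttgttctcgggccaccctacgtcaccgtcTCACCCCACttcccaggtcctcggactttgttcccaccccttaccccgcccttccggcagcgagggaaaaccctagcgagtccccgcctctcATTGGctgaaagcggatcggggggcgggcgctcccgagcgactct
*Hmgcs1* held TCACCCCAC at 137 bases before the start site and 4 CCAAT boxes in its whole window. *Idi1* held 2 CCAAT boxes, at 45 and 14 bases before the start site. The *Idi2* window held neither of these and 1 AACAAT, at 172 bases before the start site. *Lss* had a CCAAT box at 62 bases and *Cyp51* at 29, and *Dhcr7* had boxes at 85 and 49 bases in 1 of its 3 windows. Of 32851 windows of this length, 0.551% held TCACCCCAC, 1.24% TCACNCCAC, 37.4% CCAAT and 10.72% AACAAT. The Sox core was thus found in many windows, and the letters say nothing on whether a factor was bound.

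Markers of other cells that a tooth germ sample could hold were read on the same arrays, and their part in the *Idi2* value was not tested. Of 12 skeletal muscle markers, 10 were measured, and 9 had a log2 ratio below 0. Of the 10, 5 were lower and 1 higher beyond 2 errors, beside 5.29% and 5.55% of all measured genes. The markers had a median of -0.47 and ran from -0.71 for *Ckm*, muscle creatine kinase, to 0.64 ± 0.20 for embryonic myosin, *Myh3*, the 1 that was higher. Their summed normalized level was 93.2 in wild type and 65.7 in KO, a sum over different probes made up mostly of *Tnnc2*, *Tnni2* and *Acta1*. Of 12 cornified skin markers, 9 were measured, and 7 of these had a log2 ratio above 0, beside 52.4% of all measured genes. At least 2-fold higher in KO were 4 of the 9, beside 0.739%. Beyond 2 errors, 5 were higher, beside 5.55%, and the other 4 lay within 2 errors. Their median was 0.81 over the 9. The cornified skin markers ran from -0.25 for *Casp14*, the caspase of cornifying skin, to 1.45 for the keratin *Krt1*, and their summed level was 17.2 and 27.8. *Krt10*, another keratin, had 0.34 ± 0.21 at its brightest probe and 1.84 ± 0.22 at a dimmer one. *Flg*, for filaggrin, gave 23.7 ± 5.56 and 126 ± 13.5, was well above background in KO alone and was at least 5.18-fold higher there. *Ivl* and *Dsc1* were well above background on neither array.

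Adipocytes and sebocytes, which make much lipid, were also looked for. Of 12 such markers, 5 were measured, with summed levels of 6.62 and 7.99, a median log2 ratio of 0.33 and a range from -0.75 for *Scd3*, a desaturase of sebaceous glands that had -0.35 as the mean over its probes, to 0.999 for the keratin *Krt79*. Of the 5, 3 log2 ratios were above 0 and 2 below. Among the 5 were *Fabp4*, at 1182 ± 118 and 1526 ± 153 with a log2 ratio of 0.33 ± 0.20, and *Mc5r*, with 0.65 ± 0.27. The adipocyte genes *Adipoq*, *Plin1*, *Cidec*, *Lep* and *Cfd* and the sebaceous wax synthases *Awat1* and *Awat2* were not well above background on both arrays. Of these, *Cidec* was well above background in wild type alone at 1 of its 2 probes, at least 2.83-fold lower in KO, and *Plin1* in KO alone, at least 1.24-fold higher there. Ameloblast genes had a median of -0.64 and ran from -2.27 for the exchanger *Slc24a4* to 0.63 for *Odam*, with summed levels of 3164 and 2867. Beyond 2 errors, 5 of the 8 were lower and 1 higher, beside 5.29% and 5.55% of all measured genes. General epithelial markers had a median of 0.23 and summed levels of 571 and 671, with 7 of 8 within 2 errors and *Krt18*, a keratin, higher at 0.92. Mesenchyme markers had a median of 0.18 and summed levels of 1547 and 1737, with 8 of 8 within 2 errors. The 4 erythroid markers measured had a median of -0.24 and summed levels of 242 and 199, each within 2 errors.

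**Figure D5:**
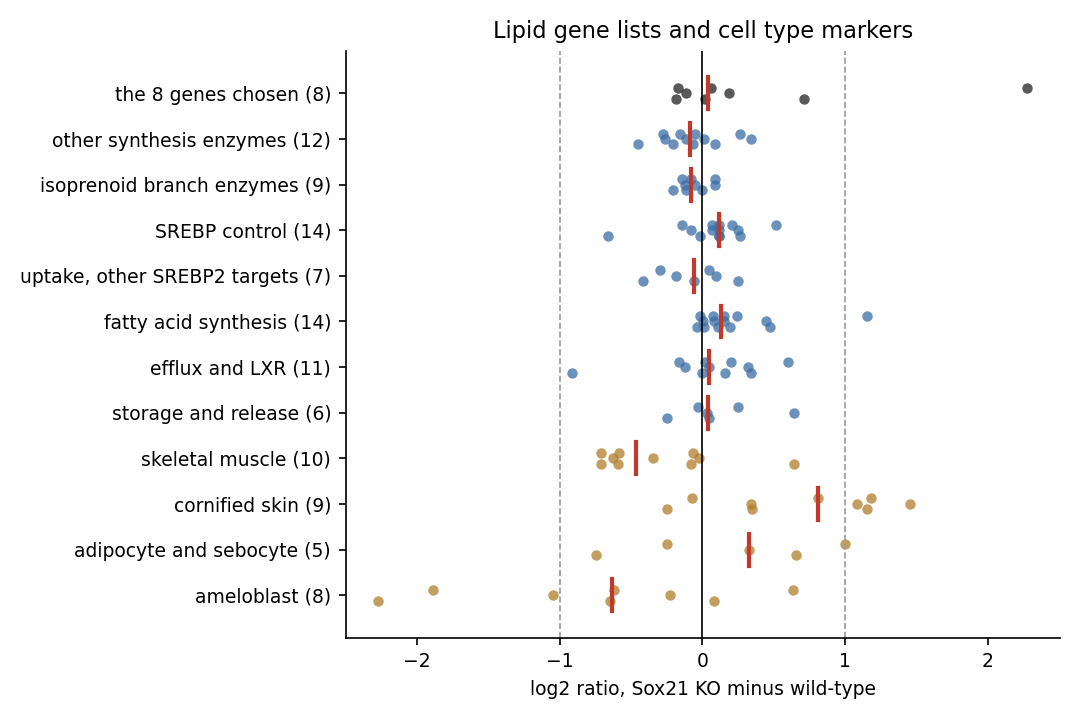
Log2 ratio (*Sox21* KO minus wild-type) of each measured gene in the lipid gene lists (black and blue) and in 4 cell type marker lists (brown), with the number of genes in parentheses, the list median as a red bar and dashed lines at 2-fold. The medians of the lipid lists lie between -0.09 and 0.13, those of skeletal muscle and ameloblast genes at -0.47 and -0.64 and that of cornified skin at 0.81.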

How the data were processed

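Gene expression was measured on 2 one-colour Agilent SurePrint G3 Mouse GE arrays, 1 per genotype, grouped by the sample labels. The authors deposited scanner output in which Agilent Feature Extraction 10.7.3.1, per the labels, gives a background-subtracted processed signal intensity, its error and a mark for signals well above background. A second deposited table gives linear ratios, which are the same signals divided by 1 number per array (268 and 276). The methods state a percentile shift without its percentile. Here the signal was divided by the array's 75th percentile over all spots, 267 outlier spots were left out, spots of a probe were averaged, and the brightest probe measured on both arrays stood for a gene. Where 1 array alone was well above background, a bound was computed. Of all spots, 0 were saturated, and precision is limited by the number of arrays.

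Probes were named through RefSeq GRCm38.p6, 26292 by accession, 2049 by symbol and 355 by older symbol. The other 26983 probes had no match and entered no count of genes and no share of measured genes. Probe coordinates are mm9, as in the files, and promoter coordinates are GRCm38.p6. The members and gene lists were chosen with earlier results of these data known. Named were every probe of the 8 genes, *Sox21*, from each pathway list the highest, the lowest, any gene at least 2-fold apart and *Insig1*, *Srebf1* and *Srebf2*. Added were genes with a measured probe within 1 Mb of *Idi2*, and the marker lists by counts and range. Some further genes were named for a dimmer probe, a difference beyond 2 errors or a missing measurement. Some genes of the pathway lists are not reported here. No test was run. The steps were tested on simulated data. Alternatives for scaling, background correction (limma normexp, offset 50), filter, outliers, probe choice, value table and fold threshold were tried. Software was R 4.3.3 with limma 3.58.1, and Python 3.11.15 with pandas 2.3.3, numpy 2.4.6 and, for plots, matplotlib 3.10.9.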

Additional observations from a re-analysis of the deposited data

How the results depend on the processing

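Over 10 alternatives, 141 of 146 recomputed values of the 8 genes and their lists stayed close to the main value. Close means a move of less than 0.09, the median SD between repeated spots, or for counts of at most 1.5 times. Of called values, 0 changed sign. Background correction by normexp lowered the log2 ratio of *Idi2* from 2.28 to 1.98, its distance from the median of the other 7 genes from 2.26 to 1.99, and *Dhcr7* from 0.71 to 0.49. At a 1.5-fold threshold, 2 of the 8 genes were apart in place of 1, the added gene being *Dhcr7*. Over all alternatives *Idi2* ranged from 1.98 to 2.35 and *Dhcr7* from 0.49 to 0.79. The log2 ratio of *Hmgcs1*, from -0.01 to 0.09, had no fixed sign. Neither had the median of the 7 genes without *Idi2*, from -0.01 to 0.09, nor that of the SREBP2 targets outside synthesis, from -0.09 to 0.02. Over all genes, 102 were at least 2-fold higher and 92 lower, against 46 and 40 with normexp, 508 and 695 with no filter on dim probes, and 129 and 68 when arrays were scaled by their median, which raised the median of all genes to 0.09 and the number of other synthesis enzymes above 0 from 4 to 6. No paired analysis was possible because each genotype has 1 array and its number comes from accession order. The ratio of *Idi2* rests on 1 probe on 2 arrays, and its other probes lie at or near background. Array and genotype cannot be told apart.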
